A study of Mus musculus with 2 samples.

Results

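The 10 S100 calcium-binding protein genes of mouse chromosome 3 (S100a1, S100a3, S100a4, S100a5, S100a6, S100a8, S100a9, S100a10, S100a11 and S100a13) were examined in a DNase I hypersensitivity (DHS-seq) table of 22605 genes. Members were found by symbol: a row of the table belonged to a gene when its transcript name without the final number equaled the symbol, and the row that covered most windows stood for the gene. The 10 genes had 16 rows, and all rows of a gene touched the same windows. M1 is a murine myeloid leukemia line of immature progenitors, and the cytokine IL-6 drives it toward macrophages. The study used DHS-seq to compare open chromatin, at the c-myb locus above all, before and after this differentiation. 1 library was made from untreated M1 cells and 1 from M1 cells given IL-6, both from passages 15 to 18 of the same line and both in horse serum medium. The labels give 4 to 5 days of IL-6 for differentiation, and no number of days is given for the DHS-seq cells in particular. A single leukemia line models these cells, and the table held no RNA, so the labelled cell type could not be checked against expressed markers.

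S100 proteins are small EF-hand proteins that change shape when they bind calcium and then bind partner proteins. S100a8 and S100a9 form calprotectin, a complex that fills the cytosol of neutrophils and monocytes and acts as a danger signal through Toll-like receptor 4 when released. Most S100 genes lie together in mammals, beside genes of the outer skin layer. In DHS-seq, DNase I cuts exposed DNA first, so that short fragments between neighboring cuts mark open chromatin such as active promoters and enhancers.

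The table gives a mean and an SD of reads over the 700-bp windows touched by each transcript's coding span, from start to stop codon, on build NCBIM37. These windows hold the only annotated start site of S100a8 and 1 of 2 start sites of S100a5 and of S100a10. The other start site lies 956 bp outside for S100a5 and 5599 bp outside for S100a10, and it belongs to the transcript that stands for the gene. The other 7 members have every annotated start site outside the windows. Promoters are shown here for the calprotectin pair and for S100a4, the member with the highest mean signal per window. Of the RefSeq promoters of the members, only that of S100a8 reaches into measured windows, with 142 of its bases. The start sites of S100a5 and S100a10 that lie inside the windows had no RefSeq promoter in this set. The sequences are from RefSeq on build GRCm38.p6, 250 bases before the start and 50 from it on, on the strand of the gene, and each was found once on NCBIM37. S100a8 lies at chr3:90668821-90669120 (plus strand), S100a9 at chr3:90695672-90695971 (minus strand) and S100a4 at chr3:90603520-90603819 (plus strand). Capitals mark matches to the letters TATAAA of a core promoter element, to the PU.1 letters GAGGAAGT, here on the opposite strand, and to the C/EBP letters TTGCNNAA.
S100a8: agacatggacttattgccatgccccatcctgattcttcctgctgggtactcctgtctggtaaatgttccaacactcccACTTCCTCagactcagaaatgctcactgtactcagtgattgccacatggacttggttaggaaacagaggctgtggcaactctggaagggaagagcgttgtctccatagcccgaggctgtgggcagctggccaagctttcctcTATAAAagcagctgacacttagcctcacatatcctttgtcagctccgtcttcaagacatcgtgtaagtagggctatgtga
S100a9: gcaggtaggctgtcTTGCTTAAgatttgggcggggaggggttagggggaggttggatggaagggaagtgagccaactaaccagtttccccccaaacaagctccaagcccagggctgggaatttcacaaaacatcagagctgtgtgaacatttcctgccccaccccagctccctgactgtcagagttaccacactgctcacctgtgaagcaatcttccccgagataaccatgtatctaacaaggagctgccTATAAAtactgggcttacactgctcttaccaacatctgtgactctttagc
S100a4: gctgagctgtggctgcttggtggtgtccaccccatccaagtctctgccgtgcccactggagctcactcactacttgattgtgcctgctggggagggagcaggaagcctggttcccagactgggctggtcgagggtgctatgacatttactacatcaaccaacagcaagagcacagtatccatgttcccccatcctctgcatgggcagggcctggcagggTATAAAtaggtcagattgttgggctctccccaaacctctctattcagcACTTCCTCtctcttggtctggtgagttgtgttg

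The S100a8 promoter had TATAAA beginning 30 bases before the start and the PU.1 letters 172 bases before it. The part of this promoter that was measured held the TATA match and not the PU.1 match. S100a4 had TATAAA beginning 31 bases before the start and the PU.1 letters at base 18 after it. In S100a9 the C/EBP letters began 236 bases before the RefSeq start and TATAAA at base 1. Both strands were searched, also for the STAT letters TTCCNGGAA and the AP-1 letters TGANTCA, in 12 promoters of 9 members. S100a11 held 2 AP-1 matches, 1 of the 4 S100a3 promoters held a TATA match, and no S100 promoter held the STAT letters. Of 32544 promoters of the same length, 13.6% held TATAAA, 3.11% the PU.1, 10.8% the C/EBP, 7.79% the AP-1 and 1.16% the STAT letters. A match is a stretch of letters and not a measured site.

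Both libraries had similar depth. The coding spans that do not overlap (chromosomes 1 to 19 and X, 1200277 windows) gave a total of 9102320 reads without IL-6 and 8544903 reads with it. The table counts a read as 1 without IL-6 and as 1.03816 with IL-6, and the values below, called scaled reads, keep this scaling. All intervals are 95% intervals that cover counting error only. There was 1 library per condition, so no difference has a replicate check, no p-value is given, and an interval that leaves out 1 compares these libraries and not the conditions. Over the 22605 genes the median was 7.75 scaled reads per window in M1 cells and 8.14 in IL-6-treated cells.

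S100a4 and S100a6 had the highest mean signal per window of the 10 genes in untreated M1 cells, and calprotectin genes were among the lowest. The intervals of the S100a6 and S100a10 means overlapped, and the strongest single window in M1 cells was in S100a10. Under the deposited scaling 6 of the 10 had ratios of IL-6-treated to untreated cells under 1, among them S100a4, S100a6 and S100a10, the 3 with the highest means. S100a3, S100a8 and S100a9 had ratios over 1.5, and the intervals of S100a6 and S100a8 held 1. The M1 count enters both the ranking by M1 signal and the ratio, so they are not independent. Under a median-of-ratios scaling, described at the end, all 10 genes had ratios over 1. Their means ran from 7 to 45 scaled reads per window in M1 cells and from 8.15 to 28.0 in IL-6-treated cells. The median of the members was 13.8 in M1 cells and 13.7 in IL-6-treated cells, above the median of all genes in both.

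**Figure D1:**
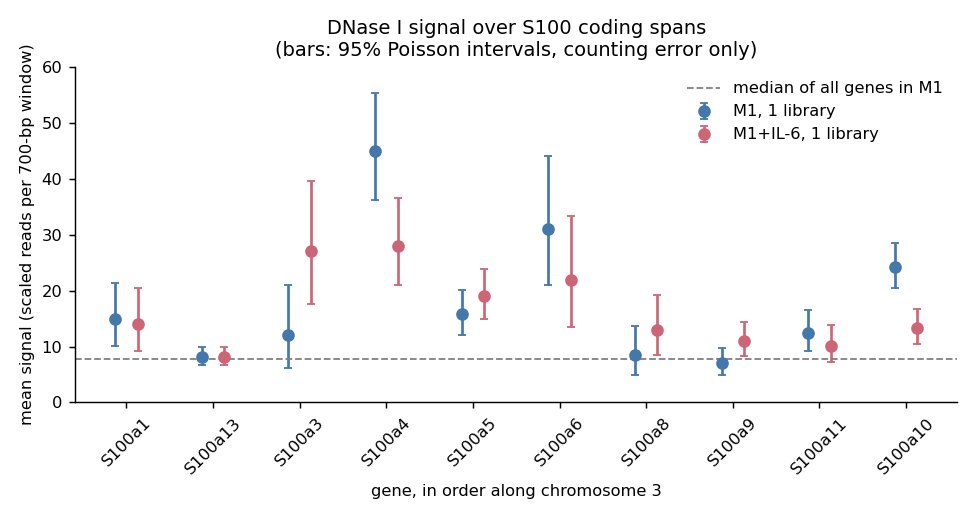
Mean signal in scaled reads per 700-bp window for each of the 10 S100 genes in the library of untreated M1 cells (blue) and that of IL-6-treated cells (red), with 95% Poisson intervals of the counts and a dashed line at the median of all genes in M1 cells, 7.75. S100a4 is highest in both libraries, and S100a3 is at 12 without and 27.0 with IL-6, under the deposited scaling.

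In M1 cells the order from highest to lowest was S100a4, S100a6, S100a10, S100a5, S100a1, S100a11, S100a3, S100a8, S100a13 and S100a9. Of the 9 pairs of neighbors in this order, 8 had overlapping intervals, and the exception was S100a10 above S100a5. With IL-6 the order was S100a4, S100a3, S100a6, S100a5, S100a1, S100a10, S100a8, S100a9, S100a11 and S100a13, and all 9 neighboring pairs overlapped. S100a3 went from rank 7 to rank 2 and S100a10 from rank 3 to rank 6.

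Every member had more than 21 scaled reads in at least 1 library, the minimum for counting a gene, but S100a3 and S100a8 reached it only in the IL-6 library. At a 2-fold limit on the log2 ratio with 0.5 reads added, 1 member (S100a3) was higher with IL-6 and 0 were lower. With 5 reads added S100a3 was at 0.92 on the log2 scale, and with more than 50 reads required it was not counted, so that 0 members were then higher. Among the 18472 genes over the minimum, 1.71% were at least 2-fold higher and 13.4% at least 2-fold lower. Among genes of 1 to 13 windows, the range of the members, 4.07% were higher and 26.1% lower. The interval of the ratio lay below 1 for 2 members (S100a4 and S100a10), against 34.4% of genes over the minimum and 37.1% of those of 1 to 13 windows. It lay above 1 for 2 members (S100a3 and S100a9), against 29.0% and 14.3%. The ratio was under 1 in 6 members and over 1 in 4, beside 9995 and 12006 of all 22605 genes. The median log2 ratio of the members was -0.05, and that of all genes past the minimum 0.03. At a 1.5-fold limit 2 members were lower (S100a4 and S100a10) and 3 higher (S100a3, S100a8 and S100a9), beside 23.2% and 10.8% of genes past the minimum. S100a3 and S100a8 passed the minimum only through the library in which they were higher, so the count of 3 is no support for a rise. The share at this limit among genes of 1 to 13 windows was not computed.

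The calprotectin genes, expressed in myeloid cells, had signal near the median of all genes in M1 cells and more reads in the IL-6 library. S100a8 (ENSMUSG00000056054), the smaller calprotectin subunit, has its coding span at chr3:90473464-90473889 on the plus strand. Its 2 windows held 17 reads without IL-6 and 25 reads with it. This is a mean of 8.50 scaled reads per window (4.95 to 13.6) against 13 (8.40 to 19.2). The ratio was 1.53 (0.792 to 3.01), so a higher level in the IL-6 library was not separated from counting error.

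S100a9 (ENSMUSG00000056071), the partner subunit, lies at chr3:90496668-90499207 on the minus strand, 22.8 kb from S100a8. Over its 5 windows 35 reads were counted in M1 cells and 53 in IL-6-treated cells, or 7 (4.88 to 9.74) and 11 (8.24 to 14.4) scaled reads per window. The ratio was 1.57 (1.01 to 2.48), with a lower bound that barely cleared 1. The S100a9 start sites lie 133 and 143 bp outside the windows, so its promoter was not measured. In M1 cells S100a9 was at percentile 45.3 and S100a8 at percentile 54.3 of all genes by mean signal, near the middle of the table. With IL-6 they stood at percentiles 68.3 and 77.1.

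S100a4 (ENSMUSG00000001020), known as metastasin and a binder of non-muscle myosin, lies at chr3:90408934-90409826 on the plus strand. Its 2 windows held 90 reads in M1 cells and 54 in IL-6-treated cells, a mean of 45 (36.2 to 55.3) and 28.0 (21.1 to 36.6) scaled reads per window. The IL-6 library was lower, at a ratio of 0.623 (0.436 to 0.882). S100a4 still had the highest mean of the 10 genes in both libraries, at percentile 95 of all genes in M1 cells and 97.5 with IL-6.

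S100a6 (ENSMUSG00000001025), calcyclin, is linked to growing cells and lies at chr3:90417689-90418244 on the plus strand. A single window held 31 reads in M1 cells and 21 in IL-6-treated cells, which is 31.0 (21.1 to 44.0) against 21.8 (13.5 to 33.3) scaled reads. The ratio of 0.703 (0.384 to 1.26) pointed the same way as that of S100a4 but its interval held 1.

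S100a10 (ENSMUSG00000041959), which pairs with annexin A2 at the membrane and has lost calcium binding, lies at chr3:93364886-93368326 on the plus strand. In its 6 windows were 145 reads in M1 cells and 77 in IL-6-treated cells, or 24.2 (20.4 to 28.4) and 13.3 (10.5 to 16.7) scaled reads per window. This was the lowest ratio of the 10 genes, 0.551 (0.413 to 0.732), or -0.85 on the log2 scale. S100a11 (ENSMUSG00000027907), a binder of annexin A1 at chr3:93327981-93330069, is its neighbor on the same strand. S100a11 held 50 reads and 39 reads in 4 windows, a mean of 12.5 (9.28 to 16.5) and 10.1 (7.20 to 13.8), with a ratio of 0.810 (0.519 to 1.26). Only 71.7% of the 32-bp stretches in the S100a11 windows occur once on NCBIM37, the lowest share of the 10 genes, so its reads are less certain than those of S100a10, at 99.7%.

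S100a3 (ENSMUSG00000001021), known from the hair cuticle, gave the highest ratio of the 10 genes. It lies at chr3:90405707-90406277 on the plus strand, and its single window held 12 reads in M1 cells and 26 in IL-6-treated cells. These are 12 (6.20 to 21) and 27.0 (17.6 to 39.5) scaled reads, a ratio of 2.25 (1.10 to 4.89) or 1.14 on the log2 scale. All 32-bp stretches of this window occur once on NCBIM37, and its 56.1% GC was the highest of the members' windows. S100a3 was 2.66 kb from S100a4, which was lower in the IL-6 library.

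S100a5 (ENSMUSG00000001023), best known from olfactory neurons, lies at chr3:90413746-90415576 on the plus strand between S100a4 and S100a6. Its 4 windows held 63 reads in M1 cells and 73 in IL-6-treated cells, or 15.8 (12.1 to 20.2) and 18.9 (14.9 to 23.8) scaled reads per window, and the ratio was 1.20 (0.847 to 1.71). S100a1 (ENSMUSG00000044080), a regulator of calcium release in muscle at chr3:90315143-90316058 on the minus strand, held 30 reads and 27 reads in 2 windows. Its mean was 15.0 (10.1 to 21.4) in M1 cells and 14 (9.24 to 20.4) with IL-6, a ratio of 0.934 (0.534 to 1.63). S100a13 (ENSMUSG00000042312), which takes part in the release of proteins without a signal peptide, lies at chr3:90319812-90328418 on the plus strand. It held 106 reads and 102 reads in 13 windows, and its mean was 8.15 in both libraries (6.68 to 9.86 and 6.64 to 9.89). The S100a13 ratio of 0.999 (0.754 to 1.32) was the closest to 1 of the 10 genes. The share of 32-bp stretches found once on NCBIM37 was 88.8% for S100a1, 87.6% for S100a13 and 90.2% for S100a9, and from 98.3% to 100% for the members other than these and S100a11.

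Signal was uneven within the spans. A mean and an SD over a known number of windows fix the reads of each window exactly for genes of 1 or 2 windows, and bound the strongest window for longer genes, but do not say which window of the span it is. In M1 cells the windows of S100a4 held 80 and 10 reads, so that 1 window carried 88.9% of its signal. With IL-6 they held 42 and 12 reads, or 43.6 and 12.5 scaled reads. If the stronger window is the same in both libraries, which the table cannot show, its ratio was 0.545 (0.366 to 0.801) and that of the weaker window 1.25 (0.493 to 3.22). S100a10 was alike in this: its strongest window held 95 to 101 reads in M1 cells and 23 to 35 reads with IL-6, and its other 5 windows together 44 to 50 and 42 to 54 reads. The ratio of the strongest S100a10 windows was between 0.236 and 0.382, and that of the rest between 0.872 and 1.27. This reading of S100a4 and S100a10 was chosen after the values were seen. Low ratios at strong signal were common in the table under the deposited scaling. Among 665 genes of up to 10 windows with a sum of both means of 80 or more, the median log2 ratio was -1.82. Of these genes 93.1% were at least 2-fold lower, so a low ratio at strong mean signal was not particular to S100 genes. No member is in this class. S100a4 and S100a10, with sums of 73.0 and 37.5, fall in classes with 51.6% and 11.2% at least 2-fold lower. These classes use means of whole spans, and strongest windows were not compared with those of other genes.

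The S100a8 windows held 13 and 4 reads in M1 cells and 23 and 2 reads with IL-6, or 23.9 and 2.08 scaled reads. If the stronger S100a8 window is the same in both libraries, which the table cannot show, its ratio was 1.84 (0.892 to 3.95). In S100a1 the windows held 22 and 8 reads in M1 cells and 19 and 8 reads with IL-6. The strongest window of S100a9 held 12 to 16 reads in M1 cells and 19 to 24 reads with IL-6, that of S100a5 23 to 28 and 22 to 23 reads, that of S100a11 18 to 25 and 17 to 19 reads, and that of S100a13 11 to 22 and 13 to 28 reads. A window above 21 scaled reads was present in M1 cells for 1 of the 2 members of 1 window, beside 17.5% of such genes, and for 2 of the 3 members of 2 windows, beside 15.0%. With IL-6 it was present for both members of 1 window (15.2%) and for 2 of the 3 members of 2 windows (14.5%). Some of these values lie at the limit: S100a6 held 21 reads with IL-6 and passed only as 21.8 scaled reads, and S100a1 held 22 in M1 cells.

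**Figure D2:**
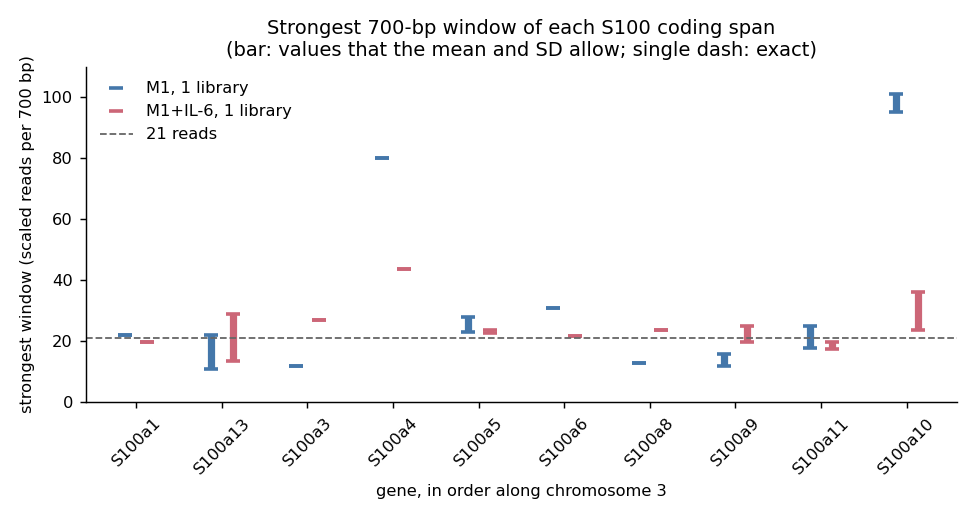
Strongest 700-bp window of each S100 coding span in scaled reads, in M1 cells (blue) and IL-6-treated cells (red). A bar spans the values that the mean and SD allow, a single dash is an exact value, and the dashed line marks 21. The windows of S100a4 and S100a10 stand out in M1 cells, at 80 and at 95 to 101, and are at 43.6 and 23.9 to 36.3 with IL-6 under the deposited scaling.

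The 10 genes lie in 2 blocks of chromosome 3. S100a1 to S100a9 form a block of 8 members over 184 kb, and S100a11 and S100a10 a block of 40.3 kb that lies 2829 kb farther on. Within the larger block S100a3, S100a4, S100a5 and S100a6 sit side by side, with gaps of 2.66, 3.92 and 2.11 kb. The ratios of these 4 neighbors were 2.25, 0.623, 1.20 and 0.703, and the intervals of S100a5 and S100a6 held 1. Under the median-of-ratios scaling all 4 ratios were above 1. Under the deposited scaling the 3 other S100 genes between the members had ratios over 1. S100a14 held 13 reads in M1 cells and 28 with IL-6, a ratio of 2.24 (1.12 to 4.70). S100a16 held 20 and 33 reads, a ratio of 1.71 (0.954 to 3.15), and S100a7a held 68 and 69 reads, a ratio of 1.05 (0.743 to 1.49).

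**Figure D3:**
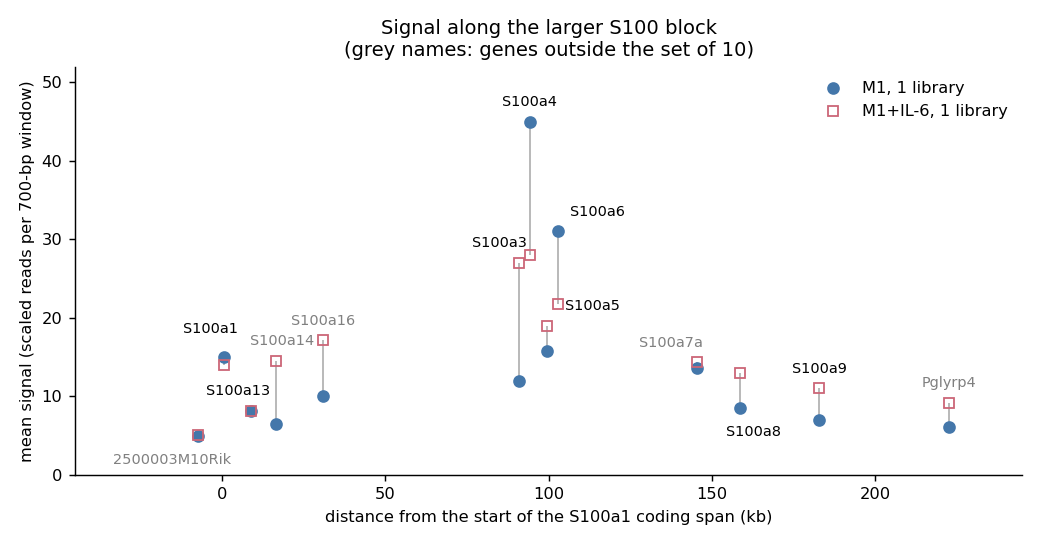
Mean signal in scaled reads per 700-bp window against distance from the start of the S100a1 coding span in kb, for the 8 members of the larger block (black names) and the other listed genes there (grey names), in M1 cells (filled blue) and IL-6-treated cells (open red). Under the deposited scaling S100a4 and S100a6 have more signal in M1 cells, and S100a3, S100a8, S100a9, S100a14 and S100a16 with IL-6; under the median of ratios all 8 members have more with IL-6.

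At the ends of the blocks the nearest genes were 2500003M10Rik, with 59 reads in each library and a ratio of 1.04, and Pglyrp4, a bacterial cell wall receptor, with 128 and 186 reads and a ratio of 1.51 (1.20 to 1.90). Beside S100a11 was Tchhl1, with 30 and 60 reads and a ratio of 2.08 (1.32 to 3.33), and beyond S100a10 was Tdpoz1, with 3 and 8 reads.

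Among genes of up to 10 windows the ratio was lower where the sum of both means was 40 or more, so each member was set beside such genes with a similar sum. For sums of 20 to 40 scaled reads the median log2 ratio of 2022 genes was 0.05, and 80% of them lay between -1.04 and 0.70. S100a1, S100a5, S100a8, S100a10 and S100a11 were inside that range and S100a3 above it, at 1.14. The class is matched on mean signal and not on total reads, and S100a3 has 1 window with 12 and 26 reads. Its ratio therefore has a wider counting spread than those of longer spans in the class. In this class 3.26% of genes were at least 2-fold higher and 11.2% at least 2-fold lower. For sums of 40 to 80 the median of 1051 genes was -1.02, with 51.6% at least 2-fold lower. S100a4 at -0.68 and S100a6 at -0.50 were above that median and inside its range of -1.75 to 0.28. S100a9, at 0.65, was in the class of 10 to 20, where the median of 2256 genes was 0.31 and the range -0.50 to 1.02. S100a13, with 13 windows, had no class.

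**Figure D4:**
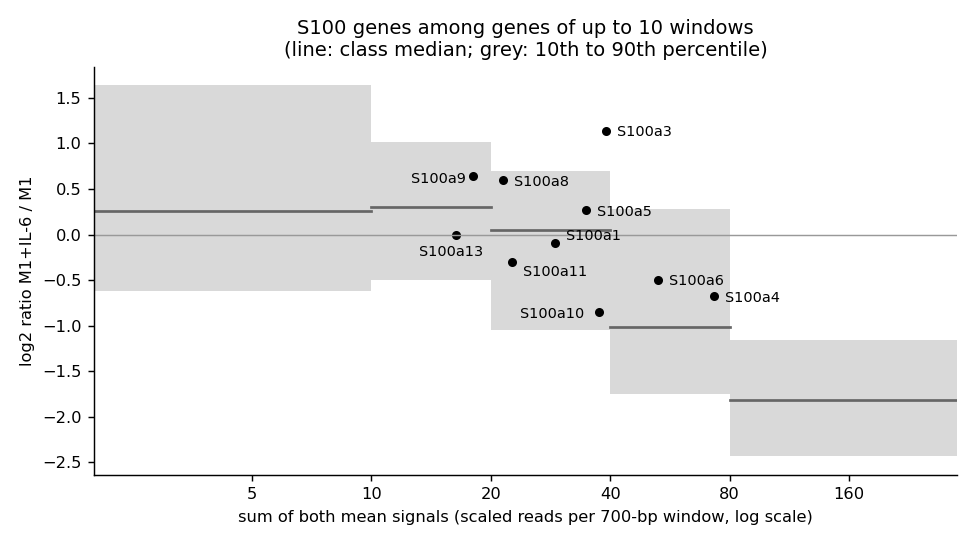
Log2 ratio of IL-6-treated over untreated M1 cells against the sum of both mean signals in scaled reads per 700-bp window (log axis) for the 10 S100 genes (points), over classes of genes of up to 10 windows (line: median; grey: 10th to 90th percentile). S100a3 lies above the grey range of its class, and S100a4 and S100a6 above the median of theirs; S100a13 has 13 windows and is plotted for its position only.

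The direction of most members depended on the scaling between the libraries. When the libraries were scaled by the median ratio of 544 single windows with at least 22 reads in both, the log2 ratios of all genes shifted by 1.83 and the median of genes past the minimum became 1.89. All 10 members then had a ratio above 1, and 9 were at least 2-fold higher, beside 84.8% of all genes past the minimum. A common factor leaves the order of the ratios as it was, with S100a3 highest at 7.98 and S100a10 lowest at 1.95. The 6 members with a ratio under 1 changed direction, so the directions given here hold under the deposited scaling and not under this one.

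**Figure D5:**
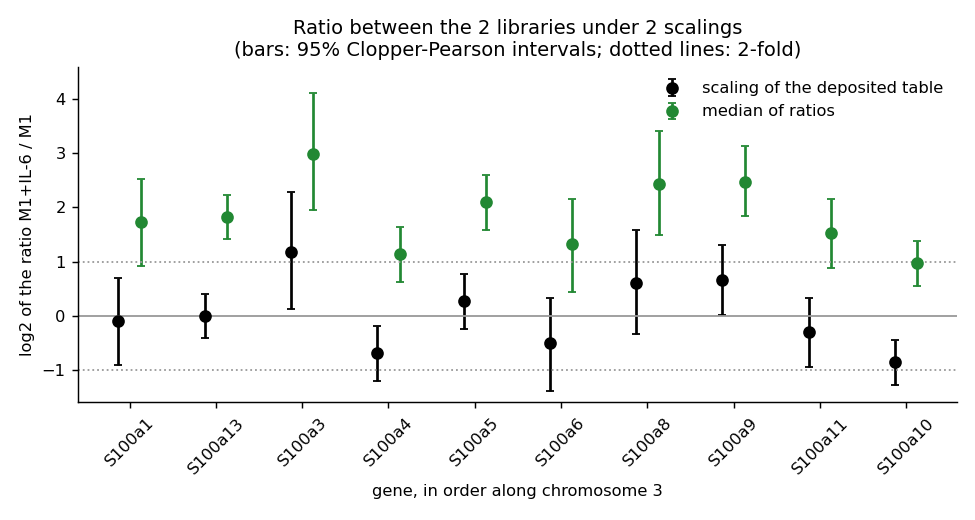
Log2 ratio of IL-6-treated over untreated M1 cells for each S100 gene with 95% Clopper-Pearson intervals, under the scaling of the deposited table (black) and the median of ratios (green), with dotted lines at 2-fold. The whole set moves up by 1.83 under the median of ratios, and S100a10 stays lowest and S100a3 highest.

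Genes of S100 partners and receptors were counted as a list. Of 20 listed symbols 19 were in the table and 18 passed the minimum. The median log2 ratio of these was -0.06, 2 were at least 2-fold lower (13.4% of all genes past the minimum) and 0 were higher (1.71%). Cacybp, which binds S100a6, held 299 reads in M1 cells and 81 with IL-6, a ratio of 0.281 (0.217 to 0.361). Tnf, a cytokine gene induced through receptors of calprotectin, held 290 and 83 reads, a ratio of 0.297 (0.230 to 0.380). Anxa2, whose product pairs with S100a10, held 616 and 577 reads, a ratio of 0.972 (0.867 to 1.09), beside the 0.551 of S100a10. Tlr4, the calprotectin receptor, held 529 and 593 reads, a ratio of 1.16 (1.03 to 1.31). The interval lay below 1 for 6 of the 18 partners and above 1 for 5, near the 34.4% and 29.0% of all genes past the minimum. Under the median of ratios, which multiplies every ratio by 1 common factor, those of Cacybp and Tnf lie close to 1. These 4 genes were picked for naming after their values were seen.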

How the data were processed

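DHS-seq was compared between 1 library of untreated M1 cells and 1 of IL-6-treated M1 cells. The authors trimmed the reads, aligned them to NCBIM37 (mm9 in the submitters' processing notes) with BWA and summarized them in Seqmonk. The deposited table holds signal values, as the mean and SD of scaled reads over the 700-bp windows that each coding span touches. Versions, read length and the treatment of reads across window edges are not given in the sources used here. Mean times number of windows, divided by what 1 read is worth, gave whole reads in 100% of 55432 rows (tolerance 0.05 reads). From these, ratios with 95% Clopper-Pearson intervals, levels with 95% Poisson intervals and the whole-number window values allowed by each mean and SD were computed. Genes were counted with more than 21 scaled reads in either library, at a 2-fold limit with 0.5 reads added. Named genes were all members, all other S100 genes, genes beside or between members, and at most 4 of the partner list. Prtn3, Cd14 and Ngp were also named, from the genes of myeloid granules and cytosol. Members and lists were chosen with earlier results of these data known. Scripts were tested on simulated data. Python 3.11.15, numpy 2.4.6, pandas 2.3.3, scipy 1.17.1 and matplotlib 3.10.9 were used. Start sites are from GENCODE M1. Alternatives covered scaling, reads added, fold, minimum and the row chosen for a gene.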

Additional observations from a re-analysis of the deposited data

How the results depend on the processing

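The result that moved most was the direction under the median of ratios, which gave 9 members at least 2-fold higher and a median log2 ratio of 1.78, against 1 member and -0.05 under the deposited scaling. With 5 reads added, or with more than 50 reads required, 0 members were higher. S100a3, the member called, then had a log2 ratio of 0.92 or too few reads. At a fold of 1.5 the counts were 2 lower and 3 higher, with S100a3 and S100a8 over the minimum only in the IL-6 library. Under the median of ratios S100a4 and S100a10 turned from ratios of 0.623 and 0.551 to 2.21 (1.55 to 3.13) and 1.95 (1.46 to 2.59). Of 72 values recomputed for 14 results, 56 stayed and 16 moved, 12 of them under the median of ratios. A ratio stayed if it lay inside its main interval, and a count if it was within 1.5 times the main count. The median stayed if it was within a small set difference, and the order if every rank was equal. The row with fewest windows gave 14 of the 56 and could not differ, since all rows of a member touch the same windows. No scaling, the total over coding spans and no minimum of reads moved none. Removing the minimum could not move a count, since every member was already over it. No scaling and the total over coding spans shift every log2 ratio by only -0.05 and 0.04. No paired analysis was possible because untreated and IL-6-treated cells had a single library each. Depth limits S100a3, S100a6 and S100a8 most, whose 1 or 2 windows hold 12 to 31 reads per library. Whether reads across a window edge were counted in both windows is not given, and if so the intervals are too narrow.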

Other observations

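Outside chromosome 3 the table listed 3 further S100 genes. S100b, known from glia, held 80 reads in M1 cells and 67 with IL-6 on chromosome 10, a ratio of 0.869 (0.619 to 1.22). S100z on chromosome 13 held 23 and 20 reads. S100g on the X chromosome, the calbindin of the gut, held 10 reads in each library and did not pass the minimum. S100pbp, which encodes a protein that binds S100 proteins, held 166 and 195 reads, a ratio of 1.22 (0.986 to 1.51).

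The 57 genes between the 2 S100 blocks, a region known for genes of the outer skin layer, had less signal in M1 cells than the members. Their median mean was 4.0 scaled reads per window in M1 cells and 7.79 with IL-6. The ratio was above 1 in 47 and below 1 in 8 of them. Among all 22605 genes the ratio was above 1 in 12006 and below 1 in 9995. Genes of low signal lean above 1: of genes of up to 10 windows, 23.2% were below 1 for sums of both means under 10. For sums of 10 to 20 this share was 29.1%. The median log2 ratio of the 57 was 0.59, beside 0.26 for genes of up to 10 windows with a sum of both means under 10 and 0.31 for sums of 10 to 20. No count past the 2-fold limit is given, because 9 of the 21 genes over the minimum of reads reached it only in the IL-6 library. The median of ratios raises every log2 ratio by 1.83, so it could not turn the 47 and is no check of their direction. Under it 84.8% of all genes past the minimum were at least 2-fold higher.

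Among 15 genes of myeloid granules and cytosol, all past the minimum, the median log2 ratio was 0.02. At least 2-fold lower were 2 of the 15 and higher 0, beside 13.4% and 1.71% of all genes past the minimum, so the lower share is near that of all genes. The interval lay below 1 for 5 and above 1 for 3, beside 34.4% and 29.0%. The lower pair was Prtn3, a neutrophil serine protease, with 309 reads in M1 cells and 111 with IL-6, a ratio of 0.373 (0.297 to 0.465), and Cd14, a lipopolysaccharide co-receptor, with 152 and 59 reads, a ratio of 0.403 (0.293 to 0.548). Ngp, a granule protein gene, had the highest ratio of the 15, 1.61 (1.09 to 2.40), with 45 and 70 reads. The ratio was below 1 in 7 of the 15 and above 1 in 8, so the list as a whole had no common direction. Under the median of ratios the ratios of Prtn3 and Cd14 lie above 1, so their direction rests on the scaling. Prtn3, Cd14 and Ngp were named after their values were seen.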
